A study of Mus musculus with 5 samples.

Results

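The genes described here encode the enzymes that build cholesterol and fatty acids from acetyl-CoA, together with the proteins that control them. They were chosen by name from a list of 36 genes. The list was drawn up with earlier results of these data known, so its counts beside those of all genes are descriptive. Every array probe whose platform annotation carried a listed symbol was taken. Of the 36 genes 33 had a probe, 45 probes in all, out of 16593 named genes on the array. Acat2, Mvk and Fdft1 had no probe matched under their symbols, so their expression was not analysed here. Promoter counts below cover listed genes with or without a probe. The 33 genes fall into mevalonate steps (5 genes with a probe), sterol steps (11), regulators and a sterol carrier (6) and a fatty acid branch (11). Expression was measured in the 46C line of mouse embryonic stem cells, which carries a green fluorescent protein reporter at the neural gene Sox1, with 1 Illumina bead array for each of 5 samples of total RNA. The 2 ESC samples came from cells held pluripotent on gelatin, with neither feeders nor serum, in the defined medium N2B27 with LIF, BMP and 100 nM PD173074, an FGF receptor inhibitor. The 3 N2B27 48 hr samples came from the same line after trypsinization, washing and 48 hr in N2B27 alone, so both groups shared the base medium, whose B27 supplement lacked vitamin A. All samples derive from a single line. The labels do not tell whether replicates were grown separately, so a p-value here covers the spread among these arrays only, and that spread may be technical. In RNA pooled from many cells, fewer cells that express a gene and less RNA per cell cannot be told apart.

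Cholesterol synthesis begins with the mevalonate pathway, which condenses acetyl-CoA into isoprenoid units and joins them to squalene, and continues with the sterol steps, which close the rings and trim them to cholesterol. Most of these genes are targets of the transcription factor SREBP2, the product of Srebf2, while the product of Srebf1 acts more on fatty acid genes. SCAP escorts both factors to the Golgi for cleavage when sterols are scarce, and the INSIG proteins hold SCAP back when sterols are abundant. Cells that divide quickly, embryonic stem cells among them, need both products for new membrane.

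Upstream sequences are shown for the genes on which the results below turn and which have a single entry in the RefSeq promoter table (build GRCm38.p6). They are Hmgcs1, the earliest step of the route with a probe, the ring closing gene Lss with the largest rise, Mvd and Cyp51, which rose more than 2-fold, and Acss2, the gene with the largest fall. Each is given from 250 bases upstream to the base before the annotated start, on the strand of the gene. Capitals mark every CCAAT, the box read by NF-Y, a partner of SREBP, every TCACNCCAC, a sterol regulatory element, and every CACGTG, an E-box, on either strand.
Hmgcs1 (chr13:119690101-119690350, plus strand): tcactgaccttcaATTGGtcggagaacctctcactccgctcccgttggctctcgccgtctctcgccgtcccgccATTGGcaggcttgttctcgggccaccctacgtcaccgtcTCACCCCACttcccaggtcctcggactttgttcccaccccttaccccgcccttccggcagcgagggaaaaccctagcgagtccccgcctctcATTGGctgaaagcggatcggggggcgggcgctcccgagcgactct
Mvd (chr8:122443423-122443672, minus strand): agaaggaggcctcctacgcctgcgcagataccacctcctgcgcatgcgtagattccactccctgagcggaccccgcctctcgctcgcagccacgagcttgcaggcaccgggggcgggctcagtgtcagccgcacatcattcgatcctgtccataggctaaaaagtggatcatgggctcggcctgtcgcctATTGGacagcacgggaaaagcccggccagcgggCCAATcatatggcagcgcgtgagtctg
Lss (chr10:76531355-76531604, plus strand): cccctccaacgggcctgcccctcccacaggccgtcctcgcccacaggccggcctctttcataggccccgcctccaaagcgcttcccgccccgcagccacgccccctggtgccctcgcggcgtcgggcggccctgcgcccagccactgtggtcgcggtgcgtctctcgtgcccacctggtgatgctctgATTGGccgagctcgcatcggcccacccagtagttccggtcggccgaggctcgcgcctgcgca
Cyp51 (chr5:4104698-4104947, minus strand): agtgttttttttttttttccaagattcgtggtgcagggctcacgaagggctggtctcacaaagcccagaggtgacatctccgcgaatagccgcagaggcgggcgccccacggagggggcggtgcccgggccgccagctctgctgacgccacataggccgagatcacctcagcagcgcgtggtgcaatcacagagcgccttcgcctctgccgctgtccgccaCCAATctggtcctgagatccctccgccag
Acss2 (chr2:155517793-155518042, plus strand): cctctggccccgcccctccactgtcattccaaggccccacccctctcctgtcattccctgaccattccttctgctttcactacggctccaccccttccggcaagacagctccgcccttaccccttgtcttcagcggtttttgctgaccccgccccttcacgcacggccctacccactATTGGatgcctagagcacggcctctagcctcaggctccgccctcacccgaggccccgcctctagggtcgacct
With distances counted from the start to the nearest base of the match, the sterol regulatory element occurred once among these 5 windows, 129 bases before the start of Hmgcs1, between CCAAT boxes that lay 172 and 41 bases before it. A CCAAT box stood 58 bases upstream in Lss, 56 and 23 bases in Mvd, 25 bases in Cyp51 and 69 bases in Acss2, and no E-box was found in any of the 5. Across windows of the same length, CCAAT was present in at least 1 promoter of 10 of the 10 sterol step genes listed in the table, 5 of 6 mevalonate genes, 4 of 5 regulators and 4 of 8 fatty acid genes. It was present in 33.8% of all 32851 promoter windows and, counted per gene, in 41.9% of the genes tested on the arrays. TCACNCCAC was found in 1 of 29 member genes (3.45%), in 1.22% of the genes tested on the arrays and in 1.05% of all windows. CACGTG was found in 6 of 29 member genes (20.7%), in 9.95% of the genes tested and in 6.02% of all windows. GGGCGG, the GC box of Sp1, was found in 24 of 29 member genes (82.8%), against 64.3% of the genes tested. These matches describe letters in a window and no binding was measured.

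Signals were background-corrected and quantile-normalized, and values below are on the scale of log2(signal + 16). A probe was tested if it was detected above background, at a detection p under 0.05, on at least 2 of the 5 arrays, and a gene was read from its brightest tested probe. Of the 33 genes, 31 were tested. The single probes of Sc5d, which introduces a double bond late in sterol synthesis, and of Fasn, the fatty acid synthase gene, were above background on 0 arrays, which does not show that these genes were silent. All 31 tested genes were detected on arrays of both groups, 29 of them on all 5 arrays. Between 42.1% and 47.5% of 25697 probes were detected per array, and N2B27 48 hr replicate 1 had the lowest mean signal, 187 against 235 to 264 on the others. Among marker genes, 6 of 6 naive stem cell genes fell from ESC to N2B27 48 hr and 5 of 5 epiblast genes rose. Of 4 general pluripotency genes, Lin28a and Utf1 rose, while Pou5f1 and Sox2 fell. The sums that follow include the offset of 16 at every probe, so undetected probes add to them. Per array, 2 to 3 of the 12 fibroblast probes and 1 to 4 of the 11 primitive and visceral endoderm probes were detected. The summed normalized signal of 12 fibroblast marker probes was 281 and 293 on the ESC arrays and 498 to 537 on the N2B27 48 hr arrays, where Thy1 and Dcn rose and Fbln2 fell, while Col1a1, Col1a2, Col3a1, Pdgfrb and Fap were detected on 0 arrays. For 11 primitive and visceral endoderm probes the sums were 232 to 240 and 229 to 238, with Gata4, Gata6, Sox17, Foxa2 and Afp detected on 0 arrays, and 5 neural probes, those of Sox1 and Pax6 among them, were detected on 0. The part of these cells in the results was not tested.

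After 48 hr in N2B27 alone, genes of the sterol route were mostly higher and those of fatty acid synthesis went both ways. Of the 31 member genes, 16 rose (51.6%), 3 fell (9.68%) and 12 did not pass the test, where 23.8% of all 8828 genes tested rose and 21.4% fell (limma, adjusted p under 0.05), 45.2% in either direction. In the sterol route as a whole, mevalonate and sterol steps together, 10 of 15 genes rose and 1 fell. Of the 10 fatty acid genes, 4 rose and 2 fell, and of the 6 regulators and carrier, 2 rose and 0 fell. The median log2 change was 0.63 for the mevalonate steps, 0.68 for the sterol steps, 0.047 for the regulators and -0.17 for the fatty acid branch, beside 0.049 for all genes tested. At 2-fold or more, 5 members rose and 1 fell, against 5.23% and 7.48% of all genes. This count depended on the processing, and so did the share over all genes. Median scaling gave 1 rise and 2 falls, against 3.7% and 9.89% of all genes. No background correction gave 1 rise and 1 fall, against 2.02% and 3.81%. Over all alternatives the rises ranged from 1 to 6 and the falls from 0 to 2. The shares of all genes then ranged from 2.02% to 8.77% and from 3.81% to 11.9%. Leaving out ESC replicate 1 gave 5 rises and 2 falls, and leaving out N2B27 replicate 1 gave 4 rises and 2 falls. The arrays of the groups did not overlap in 27 of 31 members (87.1%), against 65% of all genes. Scaling each array to its median in place of quantile normalization left 8 rises and 2 falls among the members. Of these, 6 and 1 were in the sterol route. The median was taken over all 25697 probes, of which 42.1% to 47.5% were detected per array. It lay below every detected probe, so this scaling need not align the brighter signals between arrays. With this scaling 29% of all genes were called, against 45.2% with quantile normalization. The share of rises among called genes moved from 52.6% to 29.7%, and the median of all genes to -0.106.

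**Figure D1:**
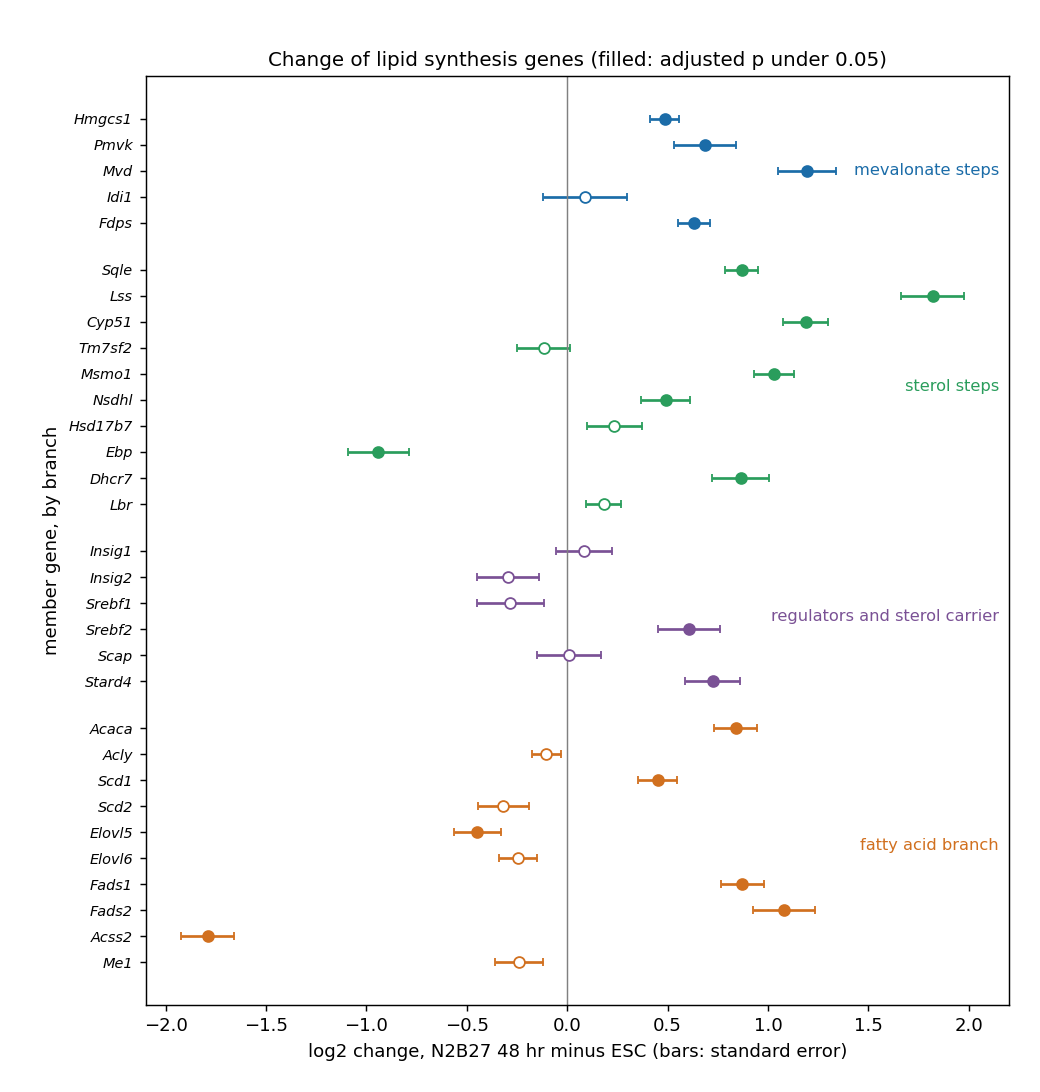
Log2 change from ESC to N2B27 48 hr of the 31 tested member genes, grouped by branch, with standard errors; filled points had an adjusted p under 0.05. In the sterol route 10 of 15 genes lie to the right of 0 with filled points and Ebp alone lies to the left with one, whereas the fatty acid genes spread from Acss2 at -1.79 to Fads2 at 1.08.

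**Figure D2:**
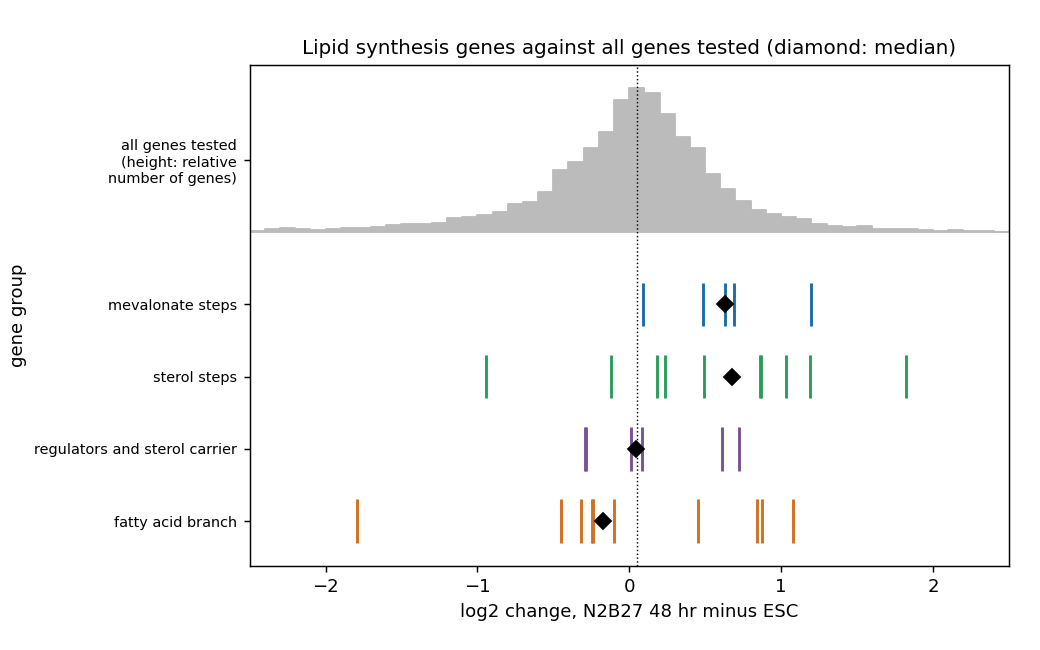
Log2 change of member genes (coloured ticks, 1 per gene, with a black diamond at the median of each branch) under the distribution for all 8828 genes tested (grey, bins of 0.1; dotted line, their median of 0.049). The medians of the mevalonate and sterol steps, 0.63 and 0.68, lie to the right of the dotted line, that of the regulators on it and that of the fatty acid branch, -0.17, to its left.

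With each gene set to its ESC mean, the median of the sterol route was 0.60, 0.56 and 0.56 on N2B27 48 hr replicates 1, 2 and 3, and that of the fatty acid branch was -0.18, -0.16 and -0.14. On the ESC arrays both medians lay between -0.026 and 0.026. After normalization the branch medians of the 3 N2B27 48 hr arrays were therefore close to each other, the dim replicate 1 included. Single genes varied more, with SDs in this group up to 0.351. Replicate 1 was the lowest of the 3 arrays in 17 of 31 members and the highest in 10. The difference of the branch medians, sterol route minus fatty acid branch, was 0.80 and was described without a test.

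Among the mevalonate steps, 4 of 5 genes rose. Mvd encodes the decarboxylase that makes isopentenyl diphosphate. Its log2 signal was 7.23 and 7.25 in ESC and 8.65, 8.49 and 8.15 in N2B27 48 hr. The groups were far apart, and replicate 3 was the lowest of the 3 later arrays. Mvd was 2.29-fold higher (log2 change 1.19 ± 0.145 SE, limma adjusted p = 7.05e-05, n = 2 and 3). Pmvk, the phosphomevalonate kinase gene, rose by 0.69 ± 0.155 (adjusted p = 0.00441), and Fdps, whose product makes farnesyl diphosphate, rose from 11.25 and 11.23 to 11.97, 11.80 and 11.84 (0.63 ± 0.0792, adjusted p = 8.56e-05). Hmgcs1, which encodes the cytosolic HMG-CoA synthase, went from 12.63 and 12.62 to 13.01, 13.16 and 13.16 (0.49 ± 0.0722, adjusted p = 0.000289). Idi1, the isopentenyl diphosphate isomerase gene, had overlapping groups, 4.92 and 5.30 in ESC and 5.54, 4.84 and 5.23 in N2B27 48 hr. These values lie close to background, and its change of 0.091 ± 0.210 did not pass (adjusted p = 0.766). Under median scaling Pmvk, Fdps and Hmgcs1 did not pass (adjusted p = 0.208, 0.202 and 0.290), whereas Mvd did (0.94, adjusted p = 0.00494).

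In the sterol steps 6 of 10 genes rose, 1 fell and 3 did not pass, and the changes ran from -0.94 to 1.82. Sqle, the epoxidase gene that commits squalene to sterols, was measured by a pair of probes. The brighter read 10.36 and 10.21 in ESC and 11.13, 11.19 and 11.15 in N2B27 48 hr, a 1.83-fold rise (0.87 ± 0.0824, adjusted p = 1.06e-05), and the dimmer rose 1.91-fold. Lss encodes lanosterol synthase, which closes the sterol rings. It had the largest rise of all members, 3.53-fold, from 6.77 and 6.28 to 8.18, 8.47 and 8.39 (1.82 ± 0.158, adjusted p = 5.51e-06). The ESC arrays differed by more than the later ones, yet the higher of them was still well below every N2B27 48 hr array. Its change lay at the 98.7 percentile of all genes tested.

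Cyp51 encodes the demethylase that acts first on lanosterol. Its signal was 7.49 and 7.43 in ESC and 8.56, 8.60 and 8.79 in N2B27 48 hr, which is 2.28-fold higher (1.19 ± 0.114, adjusted p = 1.15e-05). Msmo1, a methyl sterol oxidase gene that acts after it, went from 8.81 and 8.84 to 9.78, 9.80 and 9.99 (2.04-fold, 1.03 ± 0.0980, adjusted p = 1.1e-05). For both genes the replicates of a group lay within a narrow band that was far from the other group. Dhcr7, whose product performs a last reduction to cholesterol, rose by 0.86 ± 0.143 (adjusted p = 0.000613). Nsdhl, which works with Msmo1 in removing methyl groups, rose by 0.49 ± 0.123 at its brightest probe (adjusted p = 0.00805). Of its 4 probes another passed (0.54, adjusted p = 0.0161), and the other two gave 0.37 and 0.33 (adjusted p = 0.0515 and 0.0881). The call of Nsdhl was lost without ESC replicate 1 or 2 (adjusted p = 0.0715 and 0.0737) and under median scaling (0.25, adjusted p = 0.577). The rises of Sqle, Lss, Cyp51, Msmo1 and Dhcr7 passed under every alternative run. The dimmer probe of Sqle did not pass under median scaling (0.69, adjusted p = 0.0536).

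Ebp, the sterol isomerase gene, was the exception in this branch, and its values per array are shown for that reason, chosen after they were seen. It read 6.84 and 7.08 in ESC and 6.18, 6.001 and 5.89 in N2B27 48 hr. All later arrays lay below both ESC arrays, and Ebp was 1.92-fold lower (-0.94 ± 0.152, adjusted p = 0.000519). Its fall passed under every alternative, from -1.20 to -0.57. The sterol reductase genes Tm7sf2 and Lbr, the latter of a protein that also sits in the inner nuclear membrane, did not pass (-0.12 and 0.18, adjusted p = 0.517 and 0.113). Nor did Hsd17b7, a sterol ketoreductase gene (0.24 ± 0.136, adjusted p = 0.194), and the sign of its change and of that of Lbr turned under median scaling.

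**Figure D3:**
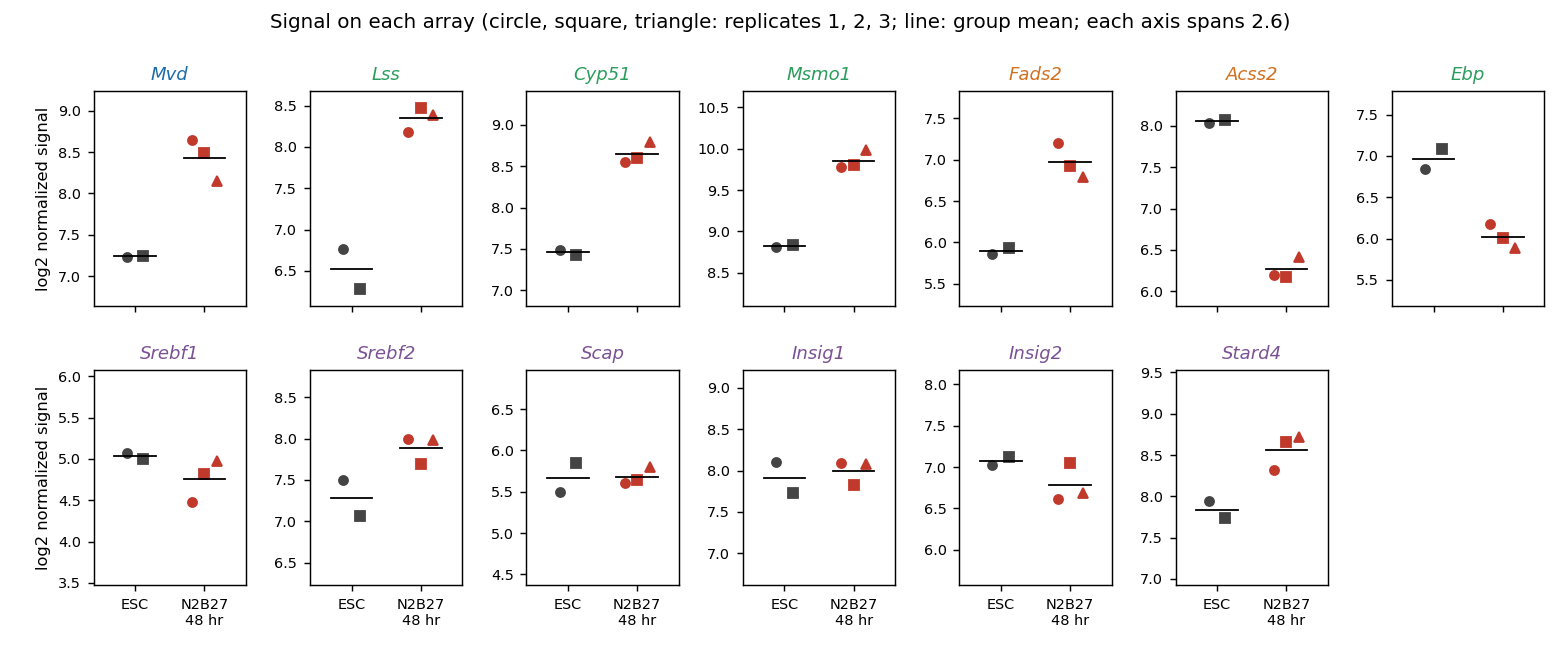
Log2 normalized signal on each of the 5 arrays for the members that changed at least 2-fold, for Ebp and for the regulators and sterol carrier; the line is the group mean, and every panel spans 2.6 on the log2 scale. The groups are separate for Mvd, Lss, Cyp51, Msmo1, Fads2, Acss2, Ebp, Srebf2 and Stard4, narrowly so for Srebf1, and overlap for Scap, Insig1 and Insig2.

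Of the genes that control the route, Srebf2 and Stard4 rose. Srebf2, which encodes the factor that drives sterol genes, read 7.50 and 7.06 in ESC and 7.99, 7.69 and 7.98 in N2B27 48 hr. The ESC arrays differed more than the later ones (SD 0.311 against 0.170), and the higher of them was not far below replicate 2 of the later group. Srebf2 was 1.52-fold higher (0.61 ± 0.155, adjusted p = 0.00865), and it did not pass without ESC replicate 2 (0.39, adjusted p = 0.155) or under median scaling (adjusted p = 0.374). Stard4, whose product carries cholesterol between membranes, went from 7.94 and 7.74 to 8.32, 8.66 and 8.72, a 1.65-fold rise (0.73 ± 0.137, adjusted p = 0.00144), lost under median scaling (0.49, adjusted p = 0.201).

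Srebf1, the gene of the factor more tied to fatty acids, was dim. Its brighter probe read 5.07 and 4.998 in ESC and 4.48, 4.81 and 4.97 in N2B27 48 hr, where 2 of 3 arrays detected it, and the change of -0.28 ± 0.167 did not pass (adjusted p = 0.201). The other probe was detected on 0 arrays. Scap, the escort of both factors, read 5.49 and 5.85 in ESC and 5.60, 5.65 and 5.80 in N2B27 48 hr. Its later arrays lay between the ESC arrays (0.0097 ± 0.161, adjusted p = 0.969).

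Insig1, itself a target of SREBP, depended on the probe. The brightest of its 4 probes read 8.10 and 7.73 in ESC and 8.09, 7.82 and 8.08 in N2B27 48 hr, with overlapping groups and a change of 0.084 ± 0.141 (adjusted p = 0.677). Dimmer probes read 6.63 and 6.61 against 6.91, 7.18 and 7.11, and 6.47 and 6.73 against 7.04, 7.02 and 6.99. Both passed (1.36-fold and 1.33-fold higher, adjusted p = 0.0212 and 0.0282), but neither passed under median scaling (adjusted p = 0.649 and 0.707) or cyclic loess (adjusted p = 0.0557 and 0.0781). The other probe was detected on 0 arrays. Insig2, the second gene of this pair, read 7.03 and 7.13 in ESC and 6.62, 7.05 and 6.68 in N2B27 48 hr. Its change of -0.29 ± 0.154 did not pass (adjusted p = 0.150), and a second probe, annotated to another transcript, gave -0.35 (adjusted p = 0.145). Without N2B27 48 hr replicate 2, the change of Insig2 was -0.43, with an adjusted p of 0.0481.

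**Figure D4:**
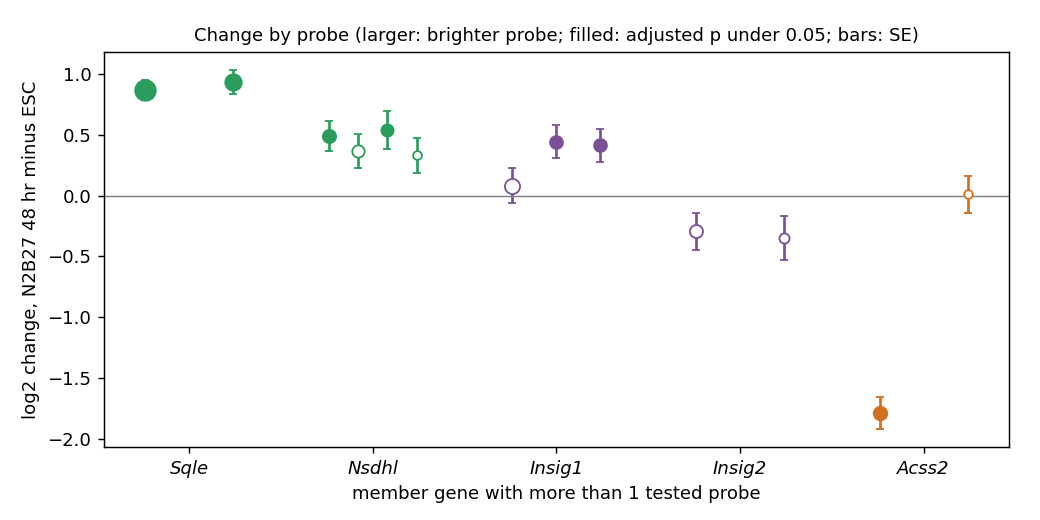
Log2 change with standard error of each tested probe for the 5 member genes with more than 1 tested probe; point size grows with mean signal and filled points had an adjusted p under 0.05. Both probes of Sqle lie near 0.9, those of Nsdhl between 0.33 and 0.54, the brightest of Insig1 near 0 below a pair of filled points, and those of Acss2 at -1.79 and 0.013.

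Of the 10 fatty acid genes tested, 4 rose, 2 fell and 4 did not pass. Acss2, the gene of the cytosolic synthetase that makes acetyl-CoA from acetate, read 8.04 and 8.07 in ESC and 6.20, 6.18 and 6.42 in N2B27 48 hr. This 3.46-fold fall (-1.79 ± 0.132, adjusted p = 1.55e-06) was the largest of any member and lay at the 2.78 percentile of all genes. A second probe of the same transcript was dim, 4.60 and 4.71 in ESC and 4.86, 4.66 and 4.46 in N2B27 48 hr, and gave no such change (0.013 ± 0.153, adjusted p = 0.958). With the mean of both probes the change of Acss2 was -0.89 (adjusted p = 0.000295). Acly, which splits citrate into acetyl-CoA, did not pass (-0.10 ± 0.0703, adjusted p = 0.267), with 11.88 and 11.86 in ESC and 11.74 to 11.79 later. Me1, the malic enzyme gene that supplies NADPH, did not pass either (-0.24 ± 0.120, adjusted p = 0.133). Under cyclic loess Acly (-0.24, adjusted p = 0.025) and Me1 (-0.33, adjusted p = 0.0475) both passed as lower.

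Acaca, the acetyl-CoA carboxylase gene of the committed step, rose from 8.64 and 8.57 to 9.30, 9.58 and 9.45. The groups were well apart and the rise was 1.79-fold (0.84 ± 0.107, adjusted p = 9.63e-05), though it did not pass under median scaling (0.59, adjusted p = 0.106). Elovl5 and Elovl6, elongase genes that act on polyunsaturated and on saturated or monounsaturated chains, had lower means at 48 hr, and the former passed the test. Elovl5 read 10.72 and 10.66 in ESC and 10.07, 10.17 and 10.49 in N2B27 48 hr, and fell by 0.45 ± 0.117 (adjusted p = 0.00991). Without ESC replicate 1 or 2 it did not pass (adjusted p = 0.0781 and 0.0550), nor under median scaling (adjusted p = 0.0541). Elovl6 read 9.64 and 9.47 against 9.28, 9.36 and 9.30, and its change of -0.24 ± 0.0945 lay just outside the threshold (adjusted p = 0.0585). It passed in 5 of 19 alternatives, the run with the replicate number as a block among them.

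Among desaturases, those of polyunsaturated chains rose together. Fads1 read 10.14 and 10.20 in ESC and 10.83, 11.16 and 11.15 in N2B27 48 hr, and was 1.83-fold higher (0.87 ± 0.106, adjusted p = 7.01e-05). Fads2 read 5.86 and 5.93 against 7.20, 6.93 and 6.79, and was 2.11-fold higher (1.08 ± 0.155, adjusted p = 0.000228). Every later array exceeded both ESC arrays for each gene, and both rises passed under every alternative. They are neighbours on chromosome 19, with 0 protein-coding genes between them in the RefSeq table, and the probe of the third gene of that family, Fads3, was detected on 0 arrays. The stearoyl-CoA desaturase genes, which make monounsaturated chains, are near each other on the same chromosome, with Scd4 between them. Scd1 rose from 8.44 and 8.39 to 8.89, 8.86 and 8.84 (0.45 ± 0.0962, adjusted p = 0.00313), while Scd2 read 7.63 and 7.56 against 7.13, 7.42 and 7.28 (-0.32 ± 0.127, adjusted p = 0.0656). The groups did not overlap for either gene. The difference between their changes was not tested. Scd1 did not pass without ESC replicate 2 (adjusted p = 0.0556) or under median scaling (adjusted p = 0.697), and Scd2 passed under cyclic loess and with the replicate number as a block (adjusted p = 0.0246 and 0.0409). Probe sequences were not used here, so sharing of signal between these near relatives could not be checked.

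Other genes of lipid synthesis were taken from lists of their own, also drawn up with earlier results of these arrays known. The lists are small, and their counts stand beside 23.8% rises and 21.4% falls among all genes tested. In further fatty acid elongation and desaturation, 4 of 9 tested genes rose and 0 fell (median 0.27). These were Hacd1 (1.73 ± 0.114, adjusted p = 6.38e-07) and Hacd3 (0.46 ± 0.0915), dehydratases of the elongation cycle, the ketoacyl reductase gene Hsd17b12 (0.98 ± 0.128) and the elongase gene Elovl4 (0.69 ± 0.144), of which Hacd3 and Elovl4 did not pass under median scaling. The isoprenoid side branches had 1 rise and 2 falls among 6 (median -0.27). Fntb and Fnta, the subunits of protein farnesyltransferase, fell by 1.31 ± 0.0855 and 0.40 ± 0.0740 (adjusted p = 6.2e-07 and 0.0013), and Coq2, of ubiquinone synthesis, rose by 0.57 ± 0.194 (adjusted p = 0.0359). Of 3 probes of Fnta, 2 passed, and under median scaling the other alone did. In the list for SREBP processing and the liver X receptor axis, 1 of 3 tested genes fell, the phospholipid remodelling gene Lpcat3 (-0.67 ± 0.111, adjusted p = 0.00061), and Mbtps1, the first protease that cuts SREBP, did not pass (-0.012, adjusted p = 0.949). For acetyl-CoA and NADPH supply, 1 of 4 rose and 1 fell (median 0.22). Idh1, the cytosolic isocitrate dehydrogenase gene, was 2.10-fold lower and Me2, the mitochondrial malic enzyme gene, 1.59-fold higher. In glycerolipid assembly 1 of 10 rose and 2 fell (median -0.0016), with the acyltransferase gene Agpat4 higher by 0.73 ± 0.118 and Agpat2 and the phosphatidate phosphatase gene Lpin1 changed by -1.10 and -0.85 on the log2 scale. Under median scaling the rises of Coq2, Me2 and Agpat4 did not pass (adjusted p = 0.433, 0.273 and 0.192).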

How the data were processed

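The authors' deposited table gives, per the file headers, an average bead signal intensity for each of 25697 probes on each array, on a linear scale and not normalized between arrays, with a detection p-value. The submitters' processing notes name BeadStudio. Neither a version nor any background subtraction is given in the sources used here. The authors' normalized intensities form the other deposited table (linear, column medians 65.2 to 65.3, method and centring unstated), which served as an alternative.

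Background was corrected in limma 3.58.1 (R 4.3.3) by normexp with controls inferred from the detection p-values, an offset of 16 was added, and log2 values were quantile normalized. Probes detected at p under 0.05 on at least 2 arrays were fitted (12605). N2B27 48 hr was compared with ESC by lmFit and eBayes with a trend, two-sided, with Benjamini-Hochberg adjusted p-values across the fitted probes and a threshold of 0.05. The fit was run on simulated data with few changed probes, as many up as down, so that run could not test the choice of scaling. Precision is limited by the number of arrays. The median standard error was 0.145, and values after ± are standard errors.

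Gene symbols came from the platform annotation (23978 probes with 1 symbol, 0 with several, 1719 unnamed here) and were updated by Entrez identifier in RefSeq's GRCm38.p6 table (23962 matched). Of 36 listed genes, 29 had an entry in the promoter table. The members and lists were chosen with earlier results of these data known. Values per array are given for members changed at least 2-fold, the regulators and the paralogue pairs, and for some others beside their change. Of the other lists, up to 4 changed genes in each direction are named, and genes named without passing were picked after their values were seen. Alternatives covered background correction, offset, scaling, the detection filter, each array left out, the replicate number as a block, the variance trend, array weights and averaging of probes. Figures were drawn with matplotlib 3.10.9. No chip or scan date is in the files, so neither was tested as a batch.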

Additional observations from a re-analysis of the deposited data

How the results depend on the processing

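Of 587 values of single genes under the alternatives, 545 kept their direction and their side of the threshold, 15 lost a call, 12 gained one and 15 changed sign, all of the last in genes that did not pass. The counts of 16 rises and 3 falls became 8 rises under median scaling, 7 falls under cyclic loess and 5 falls with the replicate number as a block, and in the other alternatives were 13 to 17 and 2 to 4. Of the 7 falls under cyclic loess, 6 were among the 10 fatty acid genes, against 2 in the main run. The share of all genes called was 29% under median scaling, 45.1% under cyclic loess and 49.3% with the block, against 45.2% in the main run. The cause was not tested. The mevalonate median of 0.63 became 0.48 without background correction, 0.60 with normexp without controls, 0.49 with an offset of 50, 0.43 under median scaling, 0.50 under cyclic loess, 0.496 with the authors' values and 0.60 with array weights. The sterol median of 0.68 became 0.396, 0.59, 0.48, 0.45, 0.57 and 0.46 in the first 6 of these, 0.49 without a detection filter and 0.86 with detection on all 5 arrays, where fewer genes were tested. The fatty acid median of -0.17 became -0.14 without background correction and with the authors' values, -0.38 under median scaling, -0.28 under cyclic loess and -0.10 without a filter. The regulator median of 0.047 became -0.17 under median scaling and 0.16 with the mean of all probes. The sterol route minus fatty acid difference of 0.80 became 0.59 without background correction, 0.64 with an offset of 50 and with the authors' values and 0.67 without a filter, where dim probes of Sc5d and Fasn entered, and it was 0.81 under median scaling.

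Leaving out 1 N2B27 48 hr array at a time gave 16 rises and 3 to 4 falls. Of all genes, 39.9% to 49.5% were then called, against 45.2% in the main run. Leaving out any 1 array, the medians ran from 0.56 to 0.65 (mevalonate) and 0.64 to 0.69 (sterol). Those of the regulators ran from -0.0040 to 0.10 and of the fatty acid branch from -0.21 to -0.13. The difference lay between 0.73 and 0.83. Idi1 then ran from -0.098 to 0.28, Insig1 from -0.10 to 0.27 and Scap from -0.16 to 0.18. Without ESC replicate 1 or 2, the lone ESC array was taken to vary as much as the N2B27 48 hr arrays do. Fewer of all genes were called in those runs than in the main run. The calls lost there by Nsdhl, Elovl5, Scd1 and Srebf2 need therefore not be particular to these genes. Signs turned under median scaling for Hsd17b7 (-0.026), Idi1 (-0.059), Insig1 (-0.14), Lbr (-0.0074) and Scap (-0.20), under cyclic loess for Insig1 (-0.0094) and Scap (-0.054), without ESC replicate 1 for Idi1 (-0.098) and Scap (-0.16), without ESC replicate 2 for Insig1 (-0.10), without N2B27 48 hr replicate 1 for Idi1 (-0.084), without replicate 3 of that group for Scap (-0.049), with the replicate block for Scap (-0.048) and with array weights for Idi1 (-0.078) and Scap (-0.0089). Equal replicate numbers did not deviate together (correlations of -0.085 and -0.028 between the groups), so the replicate block pairs numbers only. In that run N2B27 48 hr replicate 3 had no ESC partner and did not enter the change. The block left little from which to estimate the residual spread, so calls made with it, those of Scd2 and Elovl6 included, carry little weight. With the replicate block 16 genes rose and 5 fell, and the medians were 0.65, 0.67, -0.0028 and -0.17 in the order above. Signal near background limits what can be said of Idi1, Srebf1 and Tm7sf2 and, with no array detecting them, of Sc5d and Fasn.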
